A study of Drosophila melanogaster with 36 samples.

Results

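The 8 genes described here are the ecdysone receptor and genes of the ecdysone response in adult Drosophila melanogaster females, chosen by symbol as EcR, usp, Eip74EF, Eip75B, br, Hr3, Hr39 and ftz-f1. All 8 were found among the 13154 genes of the series, in each of the 12842 genes listed for head, 12394 for fat body and 11311 for ovaries, and all 8 passed the filter on low values in each tissue. Head, fat body (the abdomen without gut and ovaries) and ovaries came from females at RNA-2, when 60% of their cohort had died, and at RNA-1, when 10% had died. The females had been reared as larvae on 120% sugar-yeast-agar food (SYA, the high-quality or H treatment) or on 100% SYA (the medium-quality or M treatment), and all were kept on a common diet as adults. There were 3 libraries for each of the 4 groups in each of the 3 tissues, 36 in all, and each library was a pool of 11 or 12 females, so a value is an average over a pool and not the level of 1 fly. RNA-1 and RNA-2 are points of cohort survival and not fixed ages.

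Ecdysone is the insect steroid hormone that drives moulting and metamorphosis, and in adult females it also acts in the ovaries, fat body and nervous system. EcR encodes the receptor, which binds the hormone as a heterodimer with Ultraspiracle, the product of usp and the fly counterpart of the vertebrate RXR receptors. The hormone-bound receptor switches on early genes, here Eip74EF (an ETS-domain factor), Eip75B (a nuclear receptor that binds haem) and br (the Broad zinc-finger factors), and these in turn act on a later tier of nuclear receptors, here Hr3, Hr39 and ftz-f1. In ovaries, ecdysone is made by follicle cells and is known for roles in germline stem cell maintenance, in the passage of egg chambers through mid-oogenesis, in eggshell formation and in ovulation. In the fat body it takes part in yolk protein synthesis and lipid storage.

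The genes lie on several chromosomes of the BDGP6 build: EcR at 2R:6087873-6169087, usp at X:2038798-2042311, Eip74EF at 3L:17558672-17619325, Eip75B at 3L:17950953-18064696, br at X:1575132-1664869, Hr3 at 2R:10203995-10237348, Hr39 at 2L:21237250-21259675 and ftz-f1 at 3L:18750607-18801309. Br and Hr39 are on the plus strand and the other 6 on the minus strand. Values are normalised counts per gene, summed over transcripts by the authors, so the isoforms of EcR and br are not told apart. Of the 10465 exon bases of Hr3, 6466 are shared with CG12912 and 6071 with CG46321, both annotated on the same strand, so the split of reads between Hr3 and these genes is uncertain. Ftz-f1 shares 2521 of its 8581 exon bases with the non-coding gene lncRNA:CR45939 on its strand, and its split is uncertain too. Overlaps of usp and br with neighbours covered at most 265 exon bases. Total normalised counts were 54372784 to 75354692 per library, and each tissue had been normalised on its own.

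The tissues were checked against marker genes. Yolk protein and other fat body markers took 3.88% to 17.4% of the total in fat body libraries, photoreceptor markers took 1.07% to 4.37% in heads, and germline markers took 0.221% to 0.295% in ovaries. The fat body libraries also held gut markers (0.132% to 1.32% of the total) and traces of germline and eggshell transcripts, whose values stand beside the fat body results. Eye and fat body markers fell with time in heads: all 6 photoreceptor markers were called lower in both treatments. In heads the fat body markers took 4.6% to 5.85% of the total at H RNA-2 and 10.7% to 14.3% at H RNA-1. They took 3.47% to 4.0% at M RNA-2 and 13.5% to 16.4% at M RNA-1, so these markers did not set fat body apart from heads. The part of these falls in the head values of the 8 genes was not tested. In the M heads at RNA-1, replicates 1 and 3 stood apart from the other 10 libraries, as described with the head results.

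Levels were compared between the 8 genes over all 4 groups of a tissue and only per kilobase of mean annotated transcript, as a share of the library total scaled to 1000000 normalised counts. In ovaries usp was highest, with a median of 62.2 over the 12 libraries, followed by ftz-f1 (34.9), Hr39 (19.4), EcR (18.1), Eip75B (12.0), br (2.86), Eip74EF (1.00) and Hr3 (0.651). Hr39 and EcR overlapped in their range over libraries (16.3 to 21.6 and 13.3 to 20.7), as did EcR and Eip75B (9.45 to 16.9) and the lowest neighbours, Eip74EF (0.359 to 5.24) and Hr3 (0.204 to 2.79). In fat body the order began with Eip75B (17.6) and usp (16.0), which overlapped, and the middle places went to EcR (5.36), ftz-f1 (4.00), Eip74EF (3.73) and Hr39 (3.04). Br (0.275) and Hr3 (0.154) were the lowest in fat body and their ranges overlapped as well. In heads Eip75B (25.3) and usp (20.7) led again with overlapping ranges, and the others ran through ftz-f1 (12.9), EcR (10.7), Hr39 (8.02), Hr3 (6.92), Eip74EF (5.85) and br (4.30). Since the tissues were normalised separately, differences between tissues are given as description only.

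The first question was whether the genes differed between RNA-2 and RNA-1 within each larval treatment, and it was put to each tissue with limma on log2(value + 1), with p adjusted over all genes of the tissue (Benjamini-Hochberg) and a gene called at an adjusted p under 0.05. In H ovaries Hr3, Eip74EF, br and Eip75B fell and EcR rose, and in M ovaries Hr3 and Eip74EF fell while EcR and usp rose. The called receptor changes were between 0.20 and 0.35 on the log2 scale, whereas Hr3 fell by 2.93 in H and by 2.09 in M. Hr39 and ftz-f1 were called in neither treatment. Because RNA came from whole ovaries, fewer cells of a type and less RNA per cell cannot be told apart.

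The receptor genes come first. EcR had 6642, 6499 and 6409 normalised counts in H ovaries at RNA-2, against 5446, 4859 and 5029 at RNA-1. In M ovaries it had 6914, 6381 and 6938 at RNA-2, against 5498, 5365 and 5658 at RNA-1. In both treatments every RNA-2 library was above every RNA-1 library. The rise was 0.35 ± 0.051 in H (SE, log2; limma adjusted p = 0.000254) and 0.29 ± 0.051 in M (limma adjusted p = 0.00392), or 1.28-fold and 1.22-fold. For usp the M ovaries held 12811, 11434 and 12398 normalised counts at RNA-2, against 10746, 10612 and 10436 at RNA-1, again without overlap, a rise of 0.20 ± 0.053 (limma adjusted p = 0.0214). In H ovaries usp had 12522, 11291 and 12004 at RNA-2 and 11213, 10429 and 11134 at RNA-1. The H difference of 0.13 missed the threshold (limma adjusted p = 0.0652).

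Among the early genes, Eip74EF had 132, 198 and 286 normalised counts in H ovaries at RNA-2, against 723, 2129 and 1336 at RNA-1. The RNA-1 libraries were widely spread, yet the lowest of them was above the highest at RNA-2. Eip74EF fell by 2.69 ± 0.42 on the log2 scale, or 6.47-fold (limma adjusted p = 0.000566). In M ovaries Eip74EF had 151, 263 and 136 at RNA-2, against 606, 809 and 458 at RNA-1, a difference of -1.79 ± 0.42 (limma adjusted p = 0.0167). Br, whose products act in follicle cells that shape the dorsal eggshell appendages, had 802, 707 and 854 normalised counts in H ovaries at RNA-2 and 2157, 2704 and 2211 at RNA-1. The groups were far apart and br fell by 1.58 ± 0.26, or 2.98-fold (limma adjusted p = 0.000743). In M ovaries br had 495, 927 and 780.1 at RNA-2 and 1062, 1627 and 844 at RNA-1. Here the groups overlapped, and the difference of -0.67 did not pass (limma adjusted p = 0.088).

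Eip75B, which acts at the mid-oogenesis checkpoint of egg chambers, had 3891, 3849 and 4437 normalised counts in H ovaries at RNA-2, against 5355, 6353 and 6102 at RNA-1. It fell by 0.55 ± 0.13 on the log2 scale, or 1.46-fold (limma adjusted p = 0.00513). In M ovaries it had 3545, 3838 and 4402 at RNA-2, against 3896, 4843 and 3313 at RNA-1. The lowest M library of all was from RNA-1, and the difference was -0.02 (95% interval -0.31 to 0.26, limma adjusted p = 0.923).

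The later nuclear receptors were not alike. Hr3, an orphan receptor of the ROR family, had 134, 107 and 183 normalised counts in H ovaries at RNA-2, against 972, 1232 and 988 at RNA-1. In M ovaries it had 83.1, 167 and 92.1 at RNA-2, against 552, 532 and 345 at RNA-1. No RNA-2 library came near the lowest RNA-1 library in either treatment. Hr3 fell by 2.93 ± 0.28 in H (7.61-fold, limma adjusted p = 3.05e-05) and by 2.09 ± 0.28 in M (4.26-fold, limma adjusted p = 0.00123), more than any other of the 8 genes in the same fits. CG46321, which shares exons with Hr3, had 14.7, 39.4 and 63.9 normalised counts in H ovaries at RNA-2 and 316, 416 and 297 at RNA-1. In M ovaries CG46321 had 27.1, 55.0 and 34.9 at RNA-2 and 198, 185 and 126 at RNA-1, so reads of both annotations were fewer at RNA-2. Hr39, which is known for its part in the female secretory glands and in ovulation, ranged from 4376 to 5420.4 over the 12 ovary libraries. Its differences of 0.12 in H (limma adjusted p = 0.0655) and 0.12 in M (limma adjusted p = 0.106) did not pass. Ftz-f1, a competence factor for the steroid response, ranged from 11127 to 14071, and its differences were -0.12 in H (limma adjusted p = 0.162) and 0.10 in M (limma adjusted p = 0.298).

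**Figure D1:**
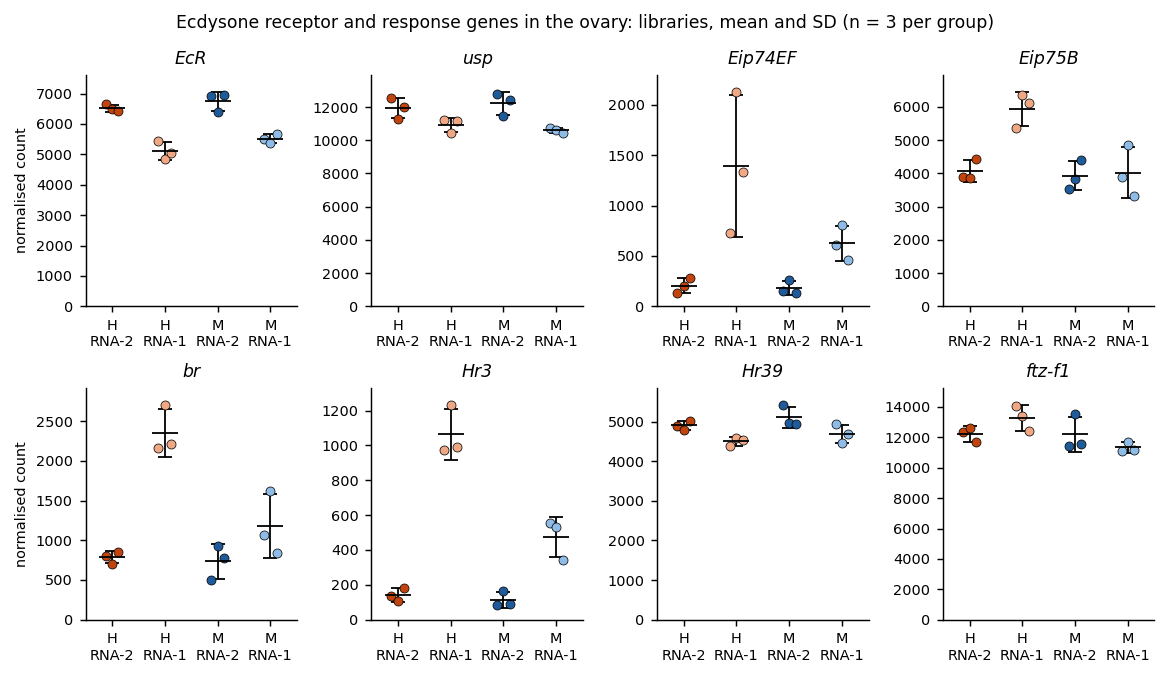
Normalised counts (vertical axes, starting at 0) of the 8 genes in the 12 ovary libraries, with 1 point per library and a horizontal mark and bars for the mean and SD of 3 libraries, in the groups H RNA-2, H RNA-1, M RNA-2 and M RNA-1. Hr3, Eip74EF and br stand highest at H RNA-1, where Hr3 lies between 972 and 1232 against 107 to 183 at H RNA-2, and EcR is higher at RNA-2 than at RNA-1 in both treatments.

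By count, 1 of 8 was called higher in H ovaries, where 25% of all genes tested were, and 4 of 8 lower, against 22.8% of all genes. In M ovaries 2 of 8 were called higher, against 9.76% of all genes, and 2 lower, against 10.6%. The median difference over the 8 genes was -0.33 in H and 0.04 in M, beside 0.01 and -0.00 over all genes tested. All 5 H calls held in each fit that left out 1 of the 12 ovary libraries. In M ovaries EcR and Hr3 held in all 12 such fits, Eip74EF in 9 and usp in 8, and the M count was 2 without M RNA-2 replicate 1, without M RNA-2 replicate 3 or without M RNA-1 replicate 2.

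Whether these changes differed between the larval treatments was tested directly as the interaction of diet and time, which is the change in H less the change in M. None of the 8 passed in ovaries, where 0% of all genes were called by limma (1746 of 9438 had an unadjusted p under 0.05). The estimates were -0.91 ± 0.59 for Eip74EF, -0.90 ± 0.36 for br, -0.84 ± 0.39 for Hr3, -0.53 ± 0.18 for Eip75B and -0.22 ± 0.095 for ftz-f1, with limma adjusted p between 0.192 and 0.418. Thus the calls of br and Eip75B in H and not in M were not shown to differ between the treatments.

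The direct comparison of the treatments at RNA-1, which uses the same RNA-1 libraries as the comparisons above, did set several genes apart. At RNA-1 Eip75B, br, Hr3 and ftz-f1 were higher in H ovaries than in M ovaries. The differences were 0.58 ± 0.13 for Eip75B (limma adjusted p = 0.0134), 1.05 ± 0.26 for br (limma adjusted p = 0.0186), 1.18 ± 0.28 for Hr3 (limma adjusted p = 0.0138) and 0.23 ± 0.067 for ftz-f1 (limma adjusted p = 0.0293), or 1.49-fold, 2.07-fold, 2.26-fold and 1.17-fold. Normalised counts at RNA-1 were 5355 to 6353 in H against 3313 to 4843 in M for Eip75B, and 2157 to 2704 against 844 to 1627 for br. They were 972 to 1232 against 345 to 552 for Hr3, and 12397 to 14071 against 11127 to 11723 for ftz-f1. The ftz-f1 call held in 8 of the 12 fits that left out 1 library, and it was lost with library totals (0.16, limma adjusted p = 0.0829), without a variance trend (limma adjusted p = 0.0542) and with the length trend of each library removed (0.06, limma adjusted p = 0.42). Eip74EF averaged 1396 ± 705 normalised counts in H and 624 ± 176 in M at RNA-1 (SD, n = 3 each), but the groups overlapped and the difference of 1.06 missed the threshold (limma adjusted p = 0.0876). So 4 of 8 were called higher, against 11.5% of all genes tested, and none lower, against 13.5%. EcR, at -0.11 (limma adjusted p = 0.134), was called lower with the length trend removed (-0.28, limma adjusted p = 0.0182) and with library totals (-0.17, limma adjusted p = 0.0248). The count was 0 without H RNA-1 replicate 2 or without M RNA-1 replicate 3, and 2 without M RNA-1 replicate 1.

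At RNA-2 the treatments could not be told apart in ovaries. None of the 8 was called, as were 0.0318% of all genes, and the differences ran from -0.06 for Hr39 to 0.34 for Hr3 (limma adjusted p of 0.997 or above for each). The 95% intervals were narrow for EcR (-0.16 to 0.06) and wide for Eip74EF (-0.77 to 1.09) and Hr3 (-0.26 to 0.95).

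A list of 9 eggshell genes of late follicle cells moved with the ovary values. It took 0.123% to 0.269% of the total at H RNA-2, 2.09% to 2.77% at H RNA-1, 0.0301% to 0.195% at M RNA-2 and 0.853% to 1.61% at M RNA-1. Of the 9, 7 fell with time in H (median log2 difference -4.42) and 7 in M (-6.52), and 0 were called between H and M at RNA-1 (median 1.24). The plot of Hr3 against the mean of these genes shows the 12 libraries. With the eggshell mean of each library added as a covariate, chosen after seeing the data, only Hr3 stayed past the threshold among the changes with time in H (-2.14, limma adjusted p = 0.0408) and none of the 8 in M, where EcR was at 0.15 and Hr3 at -1.12. Between H and M at RNA-1, Eip75B (0.61, limma adjusted p = 0.0372) and Hr3 (0.98, limma adjusted p = 0.043) stayed past it and br (0.93, limma adjusted p = 0.0568) and ftz-f1 did not. The covariate itself differed between the time points without overlap, so it and time cannot be told apart. It also differed at RNA-1, at 16.8 to 17.4 in H against 15.5 to 16.3 in M. There it and larval treatment cannot be told apart.

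Other marker lists moved in ovaries too. With time in H, 5 of 7 germline markers fell and 1 rose (median -0.35), 3 of 5 muscle markers fell (-0.74), and 3 of 6 fat body markers fell and 1 rose (-1.43). In M, 5 of 6 photoreceptor markers fell (-4.45), as did 3 of 3 gut markers (-3.08) and 3 of 6 fat body markers (-1.96), while 1 of 7 germline markers rose. Fat body markers took 0.101% to 0.164% of the total at H RNA-2, 0.67% to 0.927% at H RNA-1, 0.0782% to 0.166% at M RNA-2 and 0.309% to 0.569% at M RNA-1, and gut markers took at most 0.00245% in any ovary library. Photoreceptor markers took between 0.0108% and 0.0168% in all 4 groups. Between H and M at RNA-1, 5 of 5 muscle markers were higher in H (median 0.98), with 0.0232% to 0.0259% of the total at H RNA-1 and 0.0094% to 0.0136% at M RNA-1. Of the 7 germline markers 4 were higher and 1 lower in H at RNA-1 (median 0.16), with 0.259% to 0.295% of the total at H RNA-1 and 0.226% to 0.252% at M RNA-1. The part of these lists in the values of the 8 genes was not tested.

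Other genes of the pathway were followed in ovaries by lists. Ecdysteroid synthesis is carried out by the Halloween enzymes and the cholesterol transporter Npc1a. All 6 of the 6 genes tested (of 10 listed, with 8 in the table) fell in H, namely spo, sro, sad, shd, dib and Npc1a, and in M 5 of the 6 fell, all but dib, beside 22.8% and 10.6% of all genes tested. Spo, a cytochrome P450 of the early steps, had 137, 174 and 142 normalised counts in H ovaries at RNA-2, against 969, 1055 and 809.7 at RNA-1, and 97.3, 149 and 107 in M at RNA-2, against 568, 495 and 331 at RNA-1. It fell by 2.64 ± 0.22 in H (limma adjusted p = 1.98e-05) and by 1.96 ± 0.22 in M (limma adjusted p = 0.000623). Shd, which makes the active hormone from ecdysone, fell by 1.96 in H and by 0.99 in M. At RNA-1, spo, sro, sad and Npc1a were higher in H than in M, by 0.44 for Npc1a to 1.05 for spo, beside 11.5% of all genes tested. Leaving out single libraries gave 0 to 4 calls of this list at RNA-1. With the eggshell covariate the list had 3 calls in H, 0 in M and 3 between H and M at RNA-1. These lists were chosen with earlier results of the same libraries known.

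Of 4 genes of ecdysteroid transport and breakdown, the transporter Atet (-1.73) and the hormone-inactivating enzyme Cyp18a1 (-1.26) fell in H ovaries. In M both fell as well (-0.69 and -0.89) and the efflux transporter E23 rose by 0.18. With the eggshell covariate none of these calls passed in H, with Atet at -1.23 and Cyp18a1 at -1.18. None passed in M either, with Atet at -0.08, Cyp18a1 at -0.78 and E23 at 0.39. Of 10 other ecdysone-linked transcription factors tested (of 12 listed), 2 rose and 5 fell in H, and 1 rose and 2 fell in M. The shares of all genes called were 25% higher and 22.8% lower in H ovaries, and 9.76% higher and 10.6% lower in M ovaries. The gene that rose in M was crol, with 14085, 13085 and 13595 normalised counts at RNA-2, against 11592, 10976 and 10902 at RNA-1. Hr4 fell in M (-0.49, limma adjusted p = 0.023), and Hr4 and vri were among those that fell in H. The 2 that rose in H were not among the 3 with the lowest p. With the eggshell covariate crol in M was at 0.23 and did not pass (limma adjusted p = 0.435). Eip78C, a nuclear receptor close to Eip75B, had 5.96, 14.7 and 23.6 normalised counts in H ovaries at RNA-2, against 133, 197 and 129 at RNA-1, and 4.26, 13.1 and 10.9 in M ovaries at RNA-2, against 89.4, 104 and 57.5 at RNA-1. It fell by 3.44 in H (limma adjusted p = 0.000229) and by 3.10 in M (limma adjusted p = 0.00249). With the eggshell covariate its M difference was -2.93 and did not pass (limma adjusted p = 0.287). Kr-h1, better known as a target of juvenile hormone, fell by 1.48 in H ovaries (limma adjusted p = 0.000102) and its M difference was -0.53 (limma adjusted p = 0.0534). Kr-h1 was also higher in H than in M at RNA-1, by 1.03 (limma adjusted p = 0.00771). With the eggshell covariate its change in H, at -1.15, did not pass (limma adjusted p = 0.0679). Its difference between H and M at RNA-1 stayed past the threshold.

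ImpL2, an ecdysone-inducible gene whose product binds insulin-like peptides, had 1327, 1649 and 1951 normalised counts in H ovaries at RNA-2 and 5070, 6663 and 5502 at RNA-1. It fell by 1.81 in H (limma adjusted p = 0.000153) and by 1.23 in M (limma adjusted p = 0.00454). With the eggshell covariate neither passed, at -1.43 in H (limma adjusted p = 0.0668) and -0.76 in M (limma adjusted p = 0.504). EDTP, also of the ecdysone-inducible list, had 13655, 13530 and 12673 normalised counts in H ovaries at RNA-2, against 12478, 11193 and 11453 at RNA-1. It was called higher, and with the eggshell covariate it did not pass (0.26, limma adjusted p = 0.106). In each fit that left out 1 library, 1 gene of this list was higher and 1 lower in H. In M 0 were higher and 2 to 3 lower. Of all genes 25% were higher and 22.8% lower in H, and 9.76% and 10.6% in M. Of 6 receptor coregulators, tai, a coactivator, fell by 0.85 in H (limma adjusted p = 0.000366), the corepressor Smr fell by 0.55 and rig rose by 0.15, beside 22.8% of all genes lower and 25% higher, while none passed in M. The Smr difference was -0.04 once the trend with transcript length was removed from each library, an alternative chosen after seeing the data. With the eggshell covariate tai (-0.52), Smr (-0.29) and rig (0.18) did not pass in H.

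In fat body fewer of the 8 were called with time than in ovaries (1 against 5 in H and 3 against 4 in M). The share of all genes called was also lower, at 15.3% against 47.8% in H and 13.6% against 20.4% in M. Br fell in both treatments, Eip74EF and EcR fell in M, and none of the 8 rose. Br, which was low in this tissue, had 67.4, 70.3 and 57.1 normalised counts in H at RNA-2, against 187, 114 and 128 at RNA-1. In M it had 48.9, 46.2 and 34.2 at RNA-2, against 139, 262 and 138 at RNA-1. The time points did not overlap in either treatment. Br fell by 1.10 ± 0.30 in H (2.15-fold, limma adjusted p = 0.035) and fell by 1.98 ± 0.30 in M (3.95-fold, limma adjusted p = 0.0031). The H call was lost without H RNA-2 replicate 1, H RNA-2 replicate 3, H RNA-1 replicate 1 or H RNA-1 replicate 4, with adjusted p up to 0.113, whereas the M call held in all 12 such fits. Eggshell markers moved the same way. Of 9, 2 fell in H (median -2.89) and 6 in M (-5.22), and they took 0.000622% to 0.00181% of the total at H RNA-2, 0.0101% to 0.0349% at H RNA-1, 0.000195% to 0.00105% at M RNA-2 and 0.00274% to 0.0645% at M RNA-1. Of 5 gut markers 3 fell in H (median -2.03) and 0 were called in M (-0.96), with 0.132% to 0.449% of the total at H RNA-2, 0.515% to 1.32% at H RNA-1, 0.331% to 0.458% at M RNA-2 and 0.672% to 0.914% at M RNA-1. The part of eggshell and gut transcripts in the fat body values of br, EcR and Eip74EF was not tested.

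EcR had 1382, 1374 and 1223 normalised counts in M fat body at RNA-2, against 2454, 1933 and 1993 at RNA-1. All RNA-2 libraries were lower, and EcR fell by 0.67 ± 0.13 (1.60-fold, limma adjusted p = 0.0102). In H fat body EcR had 2096, 1592 and 2115 at RNA-2, against 2288, 2094 and 2524 at RNA-1. These groups overlapped, with a difference of -0.26 (limma adjusted p = 0.222). So the receptor mRNA fell in M fat body, whereas in M ovaries from the same females' cohort it rose. Eip74EF had 1210.0, 1217 and 1376 in M at RNA-2, against 1439, 1694 and 1637 at RNA-1, a difference of -0.33 ± 0.090 (limma adjusted p = 0.0401). This Eip74EF call held in only 4 of the 12 fits that left out 1 library, and it was lost with library totals (limma adjusted p = 0.0846), quantile normalisation (limma adjusted p = 0.152), no variance trend (limma adjusted p = 0.0536), only the 6 libraries compared (limma adjusted p = 0.0913) and a replicate block (limma adjusted p = 0.0657). In H it had 1169, 1384 and 1256 at RNA-2, against 1553, 1490.2 and 1533 at RNA-1, with a difference of -0.27 (limma adjusted p = 0.0744).

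The remaining 5 genes were not called in fat body. Usp, the heterodimer partner, ranged from 2743 to 3541 over the 12 libraries, with differences of 0.11 in H and -0.06 in M. Eip75B ranged from 5342 to 7297, with differences of -0.03 in H and -0.18 in M. Hr3 was low, with 36.9 to 90.1 normalised counts, and its differences were -0.41 in H and -0.38 in M. Hr39 and ftz-f1 had the same high and low libraries in H at RNA-2. Ftz-f1 had 2385, 1328 and 2299 in H at RNA-2 and 1612, 1357 and 1485 at RNA-1. Hr39 had 1216, 720.0 and 1204 in H at RNA-2 and 1029.8, 849.6 and 803 at RNA-1. Their differences in M were -0.53 for ftz-f1 (limma adjusted p = 0.16) and -0.55 for Hr39 (limma adjusted p = 0.115).

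**Figure D2:**
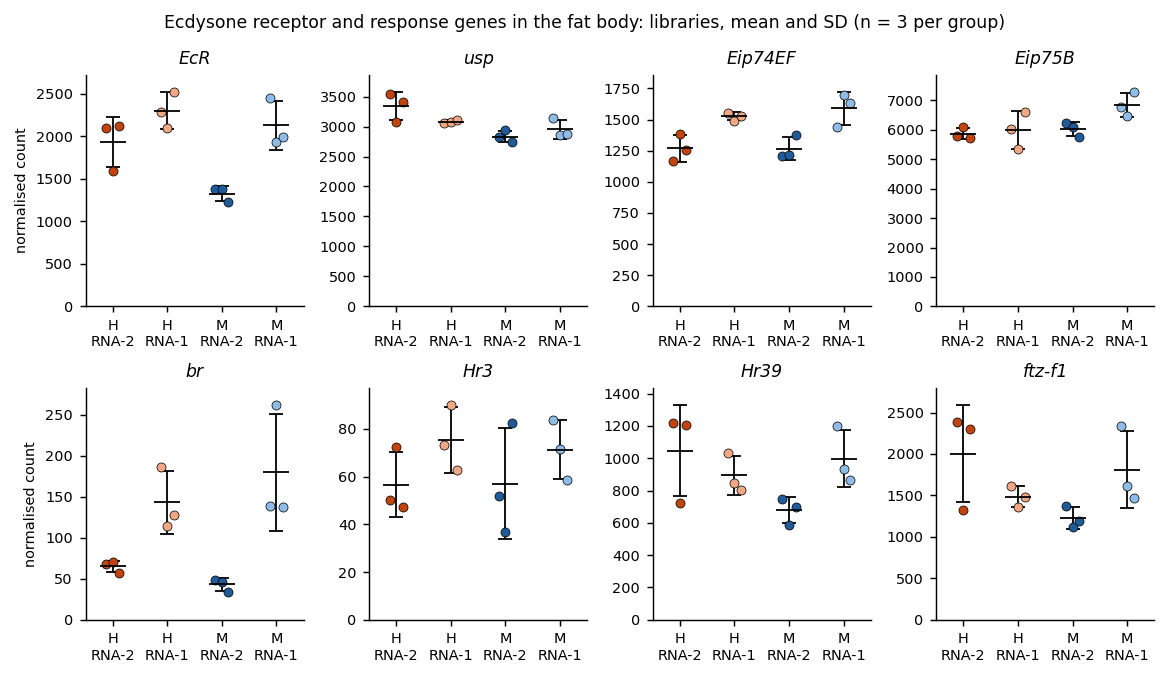
Normalised counts (vertical axes, starting at 0) of the 8 genes in the 12 fat body libraries, with points, means and SD (n = 3) in the groups H RNA-2, H RNA-1, M RNA-2 and M RNA-1. Br is lower at RNA-2 in both treatments, and in EcR, Hr39 and ftz-f1 the second H RNA-2 library (1592, 720.0 and 1328) lies below the other 2 H RNA-2 libraries.

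By count, none of the 8 was called higher in H fat body, against 6.55% of all genes tested, and 1 lower, against 8.76%. In M none was called higher, against 8.52%, and 3 lower, against 5.07%. The medians over the 8 genes were -0.14 in H and -0.45 in M, beside 0.05 and -0.02 over all genes tested. The diet by time interaction called none of the 8, against 2.02% of all genes. Its largest estimates were 0.92 ± 0.33 for ftz-f1 (limma adjusted p = 0.15) and 0.74 ± 0.30 for Hr39 (limma adjusted p = 0.178). Between H and M none was called at RNA-1, against 0.986% of all genes, or at RNA-2, against 0.599%. At RNA-2 EcR was at 0.53 (limma adjusted p = 0.104), usp at 0.24 (limma adjusted p = 0.128) and br at 0.59 (limma adjusted p = 0.263).

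Without H RNA-2 replicate 2 these counts changed, to 3 calls with time in H (ftz-f1 higher, br and Eip74EF lower), 5 with time in M, 3 in the interaction and 4 between H and M at RNA-2. That library also differed in germline transcripts. For the 3 libraries of each group, the mean log2 level of 7 germline markers was 10.5, 7.01 and 10.6 at H RNA-2 and 9.62, 8.56 and 8.13 at H RNA-1. It was 7.21, 6.77 and 7.64 at M RNA-2, against 10.4, 10.1 and 9.59 at M RNA-1. In M, 4 of the 7 germline markers fell with time and in H 0 of the 7, and the germline share of the total was at most 0.0264% in any fat body library. With the germline mean as a covariate, chosen after seeing the data, br was the only call in M (-2.0, limma adjusted p = 0.0415) and in H (-1.10, limma adjusted p = 0.0414), and EcR in M was at -0.42 (limma adjusted p = 0.163) and Eip74EF in M at -0.44 (limma adjusted p = 0.0764). Removing the length trend left EcR in M at -0.47 (limma adjusted p = 0.0227) and put Eip74EF in M at -0.11 (limma adjusted p = 0.592). A further fit dropped the 3 libraries with the highest germline means (10.5 and 10.6 at H RNA-2, 10.4 at M RNA-1). Only replicate 2 then remained at H RNA-2, so effect sizes alone are given. In that fit EcR in M was at -0.57, Eip74EF in M at -0.40, br in M at -2.13 and br in H at -0.98. Fat body markers fell as well, 5 of 6 in each treatment, taking 5.15% to 5.65% of the total at H RNA-2, 16.1% to 17.4% at H RNA-1, 3.88% to 4.82% at M RNA-2 and 14.7% to 15.3% at M RNA-1. The part of these shifts in the values of the 8 genes was otherwise not tested.

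Elsewhere in the pathway, of 12 other ecdysone-linked transcription factors, 3 fell in H fat body and 2 in M, beside 8.76% and 5.07% of all genes tested. Kr-h1 had 4505, 4985 and 4984 normalised counts in H fat body at RNA-2, against 10487, 7834 and 9958 at RNA-1, and 4719, 4242 and 4309 in M at RNA-2, against 8311, 9349 and 8733 at RNA-1. The groups were far apart, and Kr-h1 fell by 0.96 in H (limma adjusted p = 0.000492) and by 0.99 in M (limma adjusted p = 0.000629). Eip78C fell by 1.19 in H and by 1.43 in M, and Hr38, a nuclear receptor that also pairs with Ultraspiracle, fell by 1.46 in H. The H call of Eip78C held in 8 of the 12 fits that left out 1 library and was lost with library totals (limma adjusted p = 0.0503). With only the 6 libraries compared, neither Eip78C (limma adjusted p = 0.097) nor Hr38 (limma adjusted p = 0.0622) passed in H. With a replicate block neither passed in H either (limma adjusted p = 0.0793 and 0.0891). The ecdysone importer Oatp74D fell by 0.62 in H (limma adjusted p = 0.00194) and by 0.39 in M (limma adjusted p = 0.021). Of 5 synthesis genes tested 1 was called, Cyp6t3, which rose by 1.34 in H, and of 6 coregulators 0 were called in either treatment. Of 7 other ecdysone-inducible genes, 2 rose in H: EDTP by 0.45 and ImpE1, at most 17.5 normalised counts in any H library, by 1.75. In H fat body 6.55% of all genes tested were called higher. The EDTP call held in 6 of the 12 fits that left out 1 library and the ImpE1 call in 7. Both were lost with only the 6 libraries compared.

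In heads none of the 8 was called with time in H, and 3 were called higher in M, where the count changed with single libraries. In H heads the differences ran from -0.21 for Hr3 to 0.08 for Hr39, and none of the 8 was called, against 19.5% of all genes (limma adjusted p from 0.55 to 0.934). The 95% interval was -0.68 to 0.49 for br, -0.76 to 0.33 for Hr3, -0.63 to 0.22 for EcR and -0.10 to 0.23 for usp. With library totals, which put the median over all genes at 0.16, usp was called higher (0.24, limma adjusted p = 0.0417). Usp stayed between 3268 and 3775 normalised counts over the 12 head libraries.

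In M heads all 8 differences were positive, with a median of 0.53 beside 0.02 over all genes. Br had 1239, 1277 and 1416 normalised counts in M at RNA-2, against 628, 1316 and 533 at RNA-1. Hr39 had 1964, 1851 and 2095 at RNA-2, against 1067, 1913 and 992 at RNA-1. Ftz-f1 had 3920.2, 4321 and 4215 at RNA-2, against 2266, 4002 and 2122 at RNA-1. In each case RNA-1 replicates 1 and 3 were low and replicate 2 lay among or near the RNA-2 libraries, so the groups overlapped. The differences were 0.78 ± 0.27 for br (limma adjusted p = 0.0442), 0.64 ± 0.20 for Hr39 (limma adjusted p = 0.032) and 0.63 ± 0.20 for ftz-f1 (limma adjusted p = 0.0339). So 3 of 8 were called higher, against 15.8% of all genes, and none lower, against 16.1%. The other 5 lay between 0.03 for usp and 0.58 for Eip75B (limma adjusted p from 0.0658 to 0.784).

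In M heads RNA-1 replicates 1 and 3 stood apart. The mean log2 deviation of the 8 genes from their average over the 12 libraries was -0.57 in replicate 1 and -0.75 in replicate 3, against 0.16 in replicate 2. Over all genes, the deviations of these libraries fell with transcript length, with a correlation across genes of -0.387 in replicate 1 and -0.48 in replicate 3. The same correlation was 0.174 in replicate 2 and between 0.00572 and 0.207 in the other 9 head libraries. Genes are not independent replicates, so these correlations describe the libraries. With both replicates left out, an alternative chosen after seeing the data, M RNA-1 is 1 library, and its spread is taken from the other groups. In that fit none of the 8 was called in M, and br was at -0.0078 (limma adjusted p = 0.984), Hr39 at 0.04 and ftz-f1 at 0.05. With the length trend of each library removed, Hr39 (0.39, limma adjusted p = 0.0261) and ftz-f1 (0.22, limma adjusted p = 0.0412) stayed past the threshold and br did not (0.40, limma adjusted p = 0.0581). The M count was 7 without M RNA-1 replicate 2, and 0 without M RNA-1 replicate 1, M RNA-1 replicate 3 or any 1 of the 3 M RNA-2 libraries. The br call held in only 2 of the 12 fits that left out 1 library, and the Hr39 and ftz-f1 calls in 7 each. Br was also lost without a variance trend and robust variances (limma adjusted p = 0.063).

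**Figure D3:**
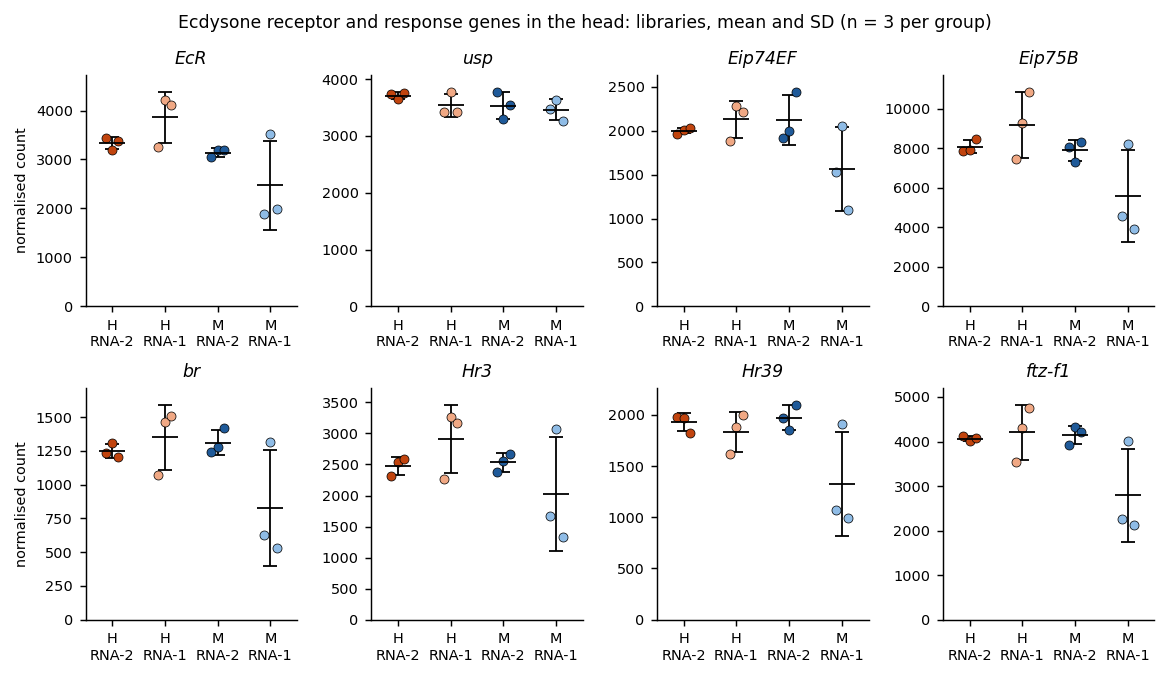
Normalised counts (vertical axes, starting at 0) of the 8 genes in the 12 head libraries, with points, means and SD (n = 3) in the groups H RNA-2, H RNA-1, M RNA-2 and M RNA-1. For every gene but usp, M RNA-1 replicates 1 and 3 are the lowest points, as for Eip75B with 4571 and 3930.2, and M RNA-1 replicate 2 (8238) lies among the libraries of the other groups.

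The same 2 libraries entered the other head comparisons. The diet by time interaction was negative for 7 of the 8 genes, from -0.88 for br, and called none, against 0.152% of all genes (limma adjusted p from 0.265 to 0.839). Between H and M at RNA-1 all 8 differences were positive, from 0.03 for usp to 0.81 for br, and none was called, against 3.39% of all genes (lowest limma adjusted p = 0.0738, for EcR at 0.69). Without M RNA-1 replicate 2 both counts were 7. Between H and M at RNA-2, where these libraries took no part, none was called, against 0.196% of all genes, and the differences lay between -0.08 and 0.09 (limma adjusted p = 1 for each).

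Among other pathway genes in heads, spok changed with time in both treatments. Spok, a paralogue of spo from the larval steroid gland, had 73.5, 73.3 and 75.5 normalised counts in H heads at RNA-2, against 13.8, 4.64 and 11.3 at RNA-1. In M heads spok had 72.3, 113 and 66.7 at RNA-2, against 20.2, 20.3 and 12.8 at RNA-1. The time points did not overlap, and spok rose by 2.90 ± 0.37 in H (limma adjusted p = 0.000264) and 2.17 ± 0.37 in M (limma adjusted p = 0.00211). Sro fell by 1.36 and sad rose by 1.27 in H heads, and neither was called in M. Fbp1, an ecdysone-inducible receptor for a larval storage protein that marks fat body, fell in both treatments, with differences of -3.19 in H and -4.49 in M. DopEcR, a membrane receptor for dopamine and ecdysteroids, fell by 0.48 in H (limma adjusted p = 0.0156) and its M difference was -0.00. Cyp18a1 fell by 0.72 and Oatp74D by 0.31 in M heads. The lists held 10 synthesis genes, 4 of transport and breakdown and 10 other inducible genes. In H heads 19.5% of all genes were called, and in M heads 15.8% were called higher and 16.1% lower. With library totals neither Oatp74D in M (-0.05, limma adjusted p = 0.684) nor DopEcR in H (-0.31, limma adjusted p = 0.124) passed. The H calls of sro, sad and DopEcR were lost with a replicate block (limma adjusted p = 0.0712, 0.129 and 0.118).

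Of 6 coregulators, 4 were called higher in M heads, beside 15.8% of all genes (tai 0.90, Smr 0.91, E(bx) 0.64 and trr 0.72), and of 12 other transcription factors 4 were, namely Hr38, crol, Eip93F and Blimp-1. The low values were again those of M RNA-1 replicates 1 and 3, as for tai with 6708, 6186 and 6565 normalised counts at M RNA-2, against 2914, 5457 and 2626 at M RNA-1. Without these 2 libraries, which leaves 1 library at M RNA-1, 0 coregulators were called, and among the transcription factors 0 were called higher and 1 lower. With the length trend removed, 1 coregulator was called higher, and 2 transcription factors were called higher and 2 lower.

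**Figure D4:**
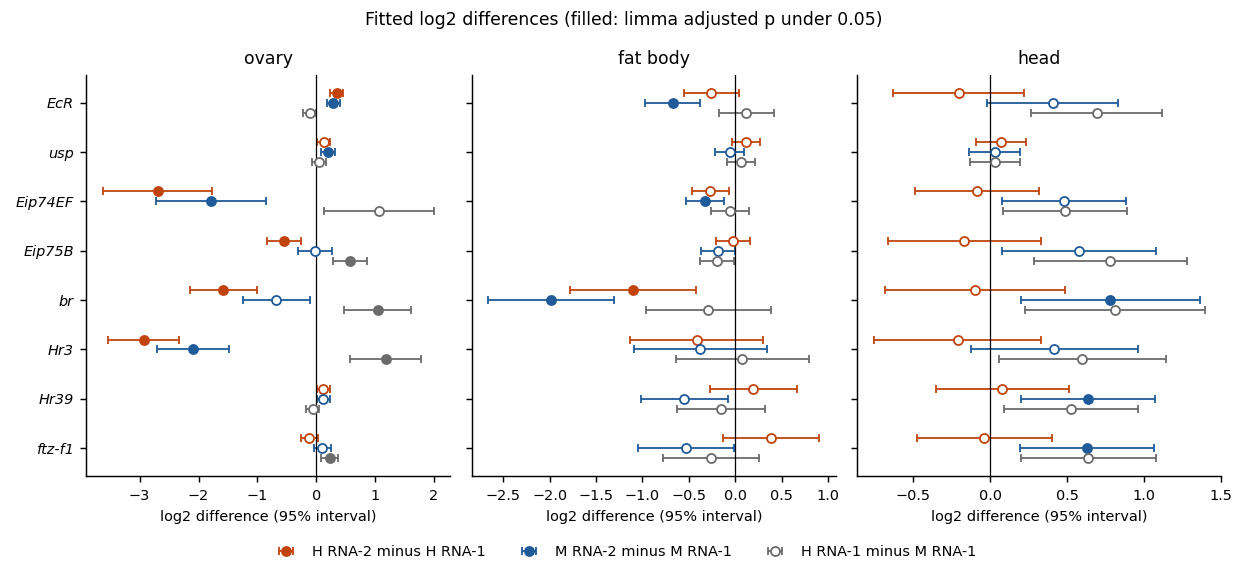
Fitted log2 differences (horizontal axes, with 95% intervals) of the 8 genes in ovary, fat body and head, for H RNA-2 minus H RNA-1, M RNA-2 minus M RNA-1 and H RNA-1 minus M RNA-1, with filled points where the limma adjusted p was under 0.05. Hr3 and Eip74EF lie furthest from 0 in ovaries, at -2.93 and -2.69 in H, br lies furthest in fat body, and the M differences in heads all lie to the right of 0.

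The 8 genes varied together within tissues to different degrees. Over the 12 ovary libraries the Pearson correlation of log2 values was 0.963 for Eip74EF with Hr3 and 0.933 for br with Hr3, whereas EcR ran opposite to Eip74EF (-0.985) and to Hr3 (-0.976). In fat body the closest pairs included Hr39 with ftz-f1 (0.957) and Eip74EF with br (0.826). In heads br and ftz-f1 had a correlation of 0.988. These values are descriptions over libraries that share groups and normalisation, and in heads they include the 2 low M RNA-1 libraries.

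Across all 36 libraries, with each tissue centred on its own mean, the pattern of each gene was compared with those of 9127 genes measured above the filter in every tissue. The most alike by Pearson's correlation were Atg1 (0.916) and milt (0.901) for EcR, CG14411 (0.876) and CG2218 (0.875) for usp, and Pat1 (0.962) and CG11147 (0.953) for Eip74EF. They were Ir62a (0.928) and sli (0.916) for Eip75B, CG30089 (0.873) and Cad86C (0.867) for br, and Pat1 (0.954) and Mur2B (0.946) for Hr3. They were FBXO11 (0.953) and Tlk (0.947) for Hr39, and E(Pc) (0.965) and CG31224 (0.964) for ftz-f1. Eip74EF and Hr3 thus shared Pat1 as the nearest gene. Mur2B overlaps br on the other strand.

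**Figure D5:**
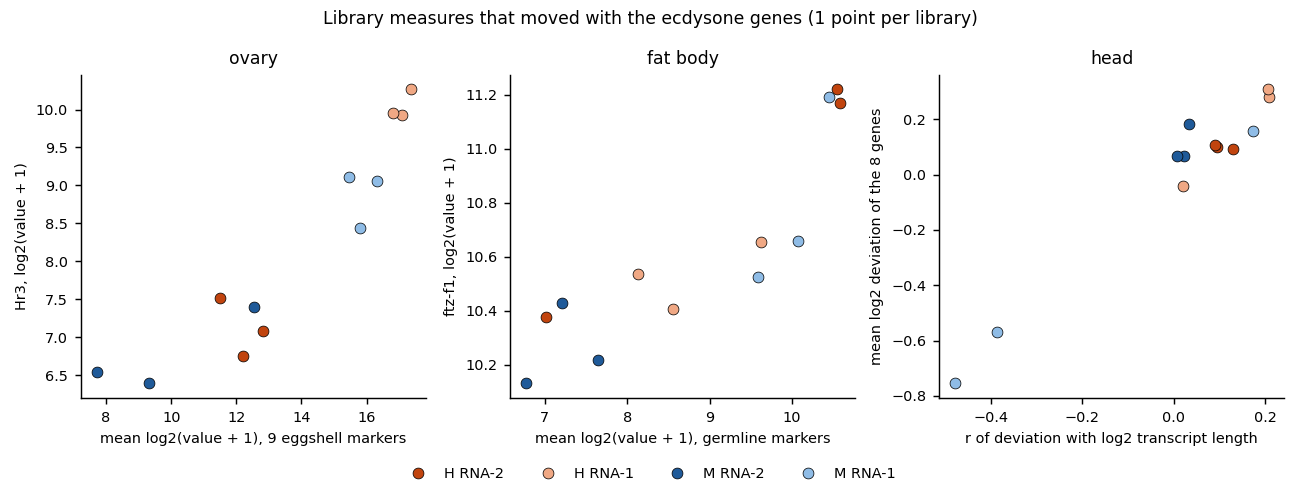
Library measures beside the values of the 8 genes, 1 point per library: log2(value + 1) of Hr3 against the mean log2 level of 9 eggshell markers in ovaries, log2(value + 1) of ftz-f1 against the mean log2 level of germline markers in fat body, and the mean log2 deviation of the 8 genes in heads against the correlation of the library's deviations with log2 transcript length. In heads 2 M RNA-1 libraries stand apart at -0.57 and -0.75, and in fat body the H RNA-2 library with the lowest germline mean of its group (7.01) also has the lowest ftz-f1.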

How the data were processed

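Polyadenylated RNA was sequenced from 36 pools of head, fat body or ovaries with stranded libraries. The authors deposited 1 table per tissue, and its signal values are normalised counts: reads were assigned to BDGP6 transcripts with kallisto 0.46.1, summed per gene and scaled with DESeq2 1.28.1 in R 4.0.1, per the labels. No source used here gives the strand setting of the read assignment. The tables also hold the authors' fold changes and p-values, which were not used. The share of low values within 0.1 of a whole multiple of 1 step ran from 10.8% to 88.1% over the 36 libraries, so whole reads were not recovered for nearly all genes, no count model was fitted, and no depth before scaling was derived. Columns of other samples numbered 0.

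Gene symbols and coordinates were taken from the Ensembl annotation of BDGP6. Genes with at least 10 normalised counts in at least 3 of the 12 libraries of a tissue were kept (11197 for head, 10850 for fat body and 9438 for ovaries). Log2(value + 1) was fitted per tissue with limma 3.58.1 (statmod 1.5.0, R 4.3.3) on 4 groups, with a variance trend and robust variances, and p was adjusted over all genes kept (Benjamini-Hochberg). There were 5 comparisons per tissue. Fold changes are on the log2(value + 1) scale, which understates changes of low genes. The fit was tested on simulated data.

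The 8 genes and the gene lists were chosen with earlier results of these data known. All 8 are named. Of each list the 3 called genes with the lowest p per comparison were picked, but not every pick is named in the text. Eip78C in H ovaries, shd, dib, trr, Blimp-1 and CG46321 were chosen after their values were seen. Alternatives covered scaling (library totals, quantiles), the pseudocount, the filter, the variance model, the libraries fitted, each library left out, a replicate block, a stricter threshold and, added after seeing the data, the covariates and left-out pairs described. Replicates are labelled as biological.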

Additional observations from a re-analysis of the deposited data

Results flagged for a closer look

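Of the pathway lists, Hr38 in heads was picked out because its change with time differed between the larval treatments. Hr38 is a nuclear receptor of the NR4A family that is induced by neuronal activity and, like EcR, can pair with Ultraspiracle. It had 471, 620.3 and 578 normalised counts in H heads at RNA-2, against 1117, 1519.8 and 1529 at RNA-1. In M heads it had 697, 825 and 960.4 at RNA-2, against 416, 567 and 352 at RNA-1. It fell by 1.31 in H (limma adjusted p = 0.00063) and rose by 0.91 in M (limma adjusted p = 0.0063), without overlap in either treatment. With the length trend of each library removed, the rise in M was 0.34 and did not pass (limma adjusted p = 0.059). Without M RNA-1 replicates 1 and 3, which leaves 1 library at M RNA-1, the rise in M was 0.53. The interaction was -2.22 ± 0.27 (limma adjusted p = 0.0197). The interaction lay between -2.41 and -1.66 over 23 alternatives and was past the threshold in 15 of them. Its adjusted p was 0.0135 with the length trend of each library removed, 0.109 without M RNA-1 replicates 1 and 3, and 0.0599 with a replicate block. It was not past the threshold without M RNA-1 replicate 1 (adjusted p = 0.088) or without any 1 of the 3 H RNA-2 libraries (0.0597 to 0.0721). In fat body the interaction of Hr38 was -1.96 (limma adjusted p = 0.0544). No explanation was tested.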

How the results depend on the processing

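Counts of the 8 genes called stayed within 1.5 times in 164 of 182 alternatives that left out no single library. The exceptions follow. In heads, scaling by library totals gave 1 call with time in H (reported 0) and 7 in M (reported 3), and M had 0 with only the 6 libraries compared, with M RNA-1 replicates 1 and 3 left out (1 library at M RNA-1) and at adjusted p under 0.01. In fat body, H (reported 1) had 2 with library totals (both higher) and 0 with 6 libraries, with the 3 libraries of high germline values left out and at 0.01, and M (reported 3) had 1 with the germline covariate and 1 at 0.01. In ovaries, the eggshell covariate gave 1 with time in H (reported 5), 0 in M (reported 4) and 2 between H and M at RNA-1 (reported 4), and at 0.01 M had 2 and H against M 0. Br in M heads turned to -0.0078 with the 2 libraries left out, and Eip75B in H fat body to 0.30 with library totals. The median difference over all genes in H fat body was 0.37 under library totals, against 0.05 as reported. In M heads that median was 0.29 under library totals, against 0.02 as reported, and usp, 1 of the added calls, was at 0.30.

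Leaving out single libraries gave 0 to 7 calls in M heads, in the head interaction and in heads between H and M at RNA-1. It gave 0 to 3 in H fat body, 2 to 5 in M fat body, 0 to 3 in its interaction and 0 to 4 between H and M at RNA-2. In ovaries it gave 5 to 6 in H, 2 to 5 in M, 0 to 1 in the interaction and 0 to 5 between H and M at RNA-1.

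Same-numbered libraries of a tissue deviated together with correlations from -0.261 to 0.318. Differently numbered libraries were not compared, so whether the numbers paired the samples was not tested. A replicate block gave 0 calls in H fat body and 2 between H and M at RNA-1 in ovaries, and other counts of the 8 genes stayed within 1.5 times. Over all alternatives, all genes called with time numbered 355 to 5204 in H ovaries (reported 4510), 0 to 2348 in M ovaries (reported 1924), 1251 to 3324 in H heads (reported 2185), 1148 to 5860 in M heads (reported 3581), 410 to 3704 in H fat body (reported 1662) and 494 to 1974 in M fat body (reported 1474). With 3 pools per group, low genes such as br and Hr3 in fat body are imprecise.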
